A study of Homo sapiens with 12 samples.

Results

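Complement genes formed the subject here: the 9 genes C1R, C1S, C3, CFB, CFI, SERPING1, CD46, CD55 and CD59, followed in an osteosarcoma cell line and in CD99 transfectants made from it. A gene was a member when at least 1 probe set of the array named it and no other gene, and the probe set with the highest mean over the 12 arrays stood for it. The 9 genes were 9 of 19775 genes reached by such probe sets, and they had 20 of the 54675 probe sets on the array. The label Sa/CD99 stood on 6 arrays and the label SaOS-2 on the other 6. The series set the transfectants against the parental cells during osteogenic differentiation. SaOS-2 is an established human osteosarcoma line with osteoblast features. Sa/CD99 denotes 2 lines, wt22 and wt36, grown out of SaOS-2 after calcium phosphate transfection of CD99, a cell surface glycoprotein, and selection with neomycin. SaOS-2 itself was the untransfected parental line, so transfection, selection and CD99 cannot be told apart in a comparison of the lines. RNA was taken at days 0, 7 and 14, with 2 arrays per line and day. Day 0 was the basal condition, and days 7 and 14 were counted in osteogenic differentiation medium. By the study's methods that medium held less serum than the routine medium, with β-glycerophosphate and ascorbic acid added. Time in culture, the lower serum and these additions cannot be told apart in a comparison with day 0. On each day the 2 arrays labelled Sa/CD99 were 1 from each clone, while the parental arrays were numbered repeats, and nothing in the labels says whether they came from separate cultures. The p-values below therefore measure only the spread between these arrays. Under the Sa/CD99 label that is a spread between 2 clones, and for SaOS-2 it may be technical. The main fit shared 1 spread per probe set over all groups. Clone differences thus entered the SaOS-2 tests, and the closer SaOS-2 repeats entered the Sa/CD99 tests.

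Complement is a cascade of plasma proteases and binding proteins that marks surfaces for removal and can pierce membranes. C1R and C1S are the proteases of the C1 complex at the head of the classical pathway, and SERPING1, the C1 inhibitor, blocks both. C3 is the central component on which all pathways converge, CFB supplies the protease of the alternative pathway C3 convertase, and CFI cleaves C3b and C4b. Host cells carry their own regulators: CD46 is a membrane cofactor for CFI, CD55 dissociates the C3 convertases, and CD59 blocks assembly of the membrane attack complex. CD55 and CD59 are held in the membrane by a glycosylphosphatidylinositol (GPI) anchor, and tumour cells often carry these regulators at high density. The liver is the main source of the plasma components, although many other cells, osteoblasts among them, can make some of them.

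Values are log2 RMA values, and a signal of 100 corresponds to 6.64 on that scale. The 2 clones differed from each other more than the parental repeats did. The SD of the difference over tested probe sets was 0.39 to 0.42 between the arrays labelled Sa/CD99, against 0.12 to 0.14 between the SaOS-2 arrays. The targeted gene did not follow the label. CD99 probe set 201028_s_at averaged 6.70, 7.54 and 8.56 at days 0, 7 and 14 on arrays labelled Sa/CD99, against 11.30, 11.72 and 11.79 on SaOS-2 arrays, and the lines differed by -4.60, -4.17 and -3.23 on the log2 scale (limma, adjusted p = 0.0024, 0.00224 and 0.00843). The other CD99 probe set, 201029_s_at, differed by 0.03, 0.07 and 0.05 and was not called. Neither showed more CD99 RNA under the Sa/CD99 label, and no source used here says whether these probe sets can read the transfected CD99 sequence. By the study's methods, CD99 was checked with real-time PCR in the parental line and both clones on every profiled day, a measurement not used here. Whether the labels of the lines were exchanged on the arrays was not tested. Every direction between the lines below therefore rests on the labels as deposited. Of the osteoblast markers, 7 of 10 exceeded a signal of 100 on more than 3 arrays, against 1 of 12 leukocyte markers, 2 of 10 hepatocyte markers, 2 of 6 epithelial markers, 1 of 6 adipocyte markers (CFD, itself a complement gene) and 0 of 6 endothelial markers.

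Promoter sequences are shown for the member that was called between days (C1R), for the regulators that lie close to each other on chromosome 1 (CD46 and CD55) and, for contrast, for CFB, which stayed under the signal floor. Each is the 250 bases before the annotated start of the gene in RefSeq (GRCh38.p14), 5′ to 3′ on the strand of the gene, and 6 of the 9 members had an entry there. Capitals mark matches, on either strand, to 8 motifs: GAS as TTCNNNGAA, the core of the interferon-stimulated response element (ISRE) as GAAANNGAA, C/EBP as TTGCGNAA, the first 9 letters of an NF-kB motif as GGGNNTTTC, RUNX as TGTGGT, the GC box as GGGCGG, the TATA box as TATAAA and the CCAAT box as CCAAT.
C1R promoter, chr12:7092446-7092695, minus strand: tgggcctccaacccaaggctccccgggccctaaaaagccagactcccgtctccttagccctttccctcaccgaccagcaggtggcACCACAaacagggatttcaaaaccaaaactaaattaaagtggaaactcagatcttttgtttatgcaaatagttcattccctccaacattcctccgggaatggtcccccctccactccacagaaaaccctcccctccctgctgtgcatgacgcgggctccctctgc
CFB promoter, chr6:31945845-31946094, plus strand: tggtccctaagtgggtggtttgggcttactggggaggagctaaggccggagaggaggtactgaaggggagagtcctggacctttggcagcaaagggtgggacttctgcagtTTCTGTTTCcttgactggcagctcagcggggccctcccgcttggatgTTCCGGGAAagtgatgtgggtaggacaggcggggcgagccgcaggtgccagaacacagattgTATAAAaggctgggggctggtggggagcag
CD46 promoter, chr1:207751788-207752037, plus strand: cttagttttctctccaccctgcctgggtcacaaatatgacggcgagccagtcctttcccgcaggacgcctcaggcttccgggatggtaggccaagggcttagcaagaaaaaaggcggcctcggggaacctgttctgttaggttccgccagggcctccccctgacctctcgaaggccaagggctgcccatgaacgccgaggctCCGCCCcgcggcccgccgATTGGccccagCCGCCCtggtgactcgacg
CD55 promoter, chr1:207321428-207321677, plus strand: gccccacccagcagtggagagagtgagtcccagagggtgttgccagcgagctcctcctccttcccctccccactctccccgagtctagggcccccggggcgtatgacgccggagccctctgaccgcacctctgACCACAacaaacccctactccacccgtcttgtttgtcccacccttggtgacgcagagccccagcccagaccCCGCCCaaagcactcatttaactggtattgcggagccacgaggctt

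No capitals overlapped between motifs. C1R held 1 RUNX match, a motif found in 10.917% of 27305 RefSeq promoter windows of the same length. CFB held a GAS match (6.775% of windows), an ISRE match (7.057%) and a TATA box (11.133%), the letters bound by STAT and interferon regulatory factors and by the TATA-binding protein. CD46 held 2 GC boxes (42.307% of windows) and a CCAAT box (33.038%) and no TATA box. CD55 held 1 RUNX match and 1 GC box. The GC content was 54.0% for C1R, 60.0% for CFB, 64.8% for CD46 and 64.0% for CD55, against a median of 58.0% over all windows. Of the other matched members, CFI (38.0% GC) held a CCAAT box and CD59 (62.0% GC) a GAS match and a CCAAT box. C/EBP letters (0.74% of windows) and NF-kB letters (4.12%) were found in none of the 6. A match describes letters in the window and not a site in use.

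C1S, C3, CFB and SERPING1, 4 of the 9 members, stayed below a signal of 100 on all 12 arrays and were left out of the test. C3 lay between 5.77 and 6.20 over the 12 arrays, with a median of 5.86. The ranges were 4.53 to 5.07 for C1S, 4.55 to 5.30 for CFB and 4.16 to 4.67 for SERPING1. Their second probe sets, where the array had one, were below the floor as well. Thus the central component, the alternative pathway protease, 1 of the 2 C1 proteases and the C1 inhibitor gave no signal above 100 in either line on any day. That value is the cut of the study's low-expression filter, called the floor here. A signal under it does not show that the RNA was absent. Values near that floor compress differences, so a small change in these genes was not detectable here. In a fit without the filters, the largest difference between the lines in these 4 genes was that of CFB at day 0, 0.33 higher in arrays labelled Sa/CD99 (95% interval 0.01 to 0.65, adjusted p = 0.512). By its main probe set CFB was 5.30 and 4.84 in clones wt22 and wt36 at day 0, against 4.83 and 4.65 in SaOS-2. The mean of this probe set was higher on arrays labelled Sa/CD99 on each of the 3 days, by 0.21 at day 7 and 0.17 at day 14. The second CFB probe set, 202357_s_at, differed by -0.06, 0.06 and 0.16 at days 0, 7 and 14, with overlapping arrays on each day. C1S reached its highest mean on day 14 in both lines, 4.87 in arrays labelled Sa/CD99 and 5.01 in SaOS-2, without passing the test in the fit without filters (SaOS-2 day 14 against day 0: 0.34, 95% interval 0.05 to 0.62, adjusted p = 0.151).

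The remaining 5 members, C1R, CFI, CD46, CD55 and CD59, were tested in 1 limma fit over 12894 probe sets. To be called, a gene needed a change of 1.5-fold or more and an adjusted p no higher than 0.05. Between arrays labelled Sa/CD99 and SaOS-2, 0 of the 5 were called at day 0 (1.16% of 6644 tested genes were called), 0 at day 7 (1.84%) and 0 at day 14 (1.66%). At an unadjusted p of at most 0.05 the counts were 1, 1 and 2 of 5, against 11.5%, 21.4% and 17.4% of all tested genes. Arrays of the lines did not overlap for 3, 4 and 3 of the 5 members at days 0, 7 and 14, against 41.1%, 57.3% and 52.7% of all tested genes. The median difference of the 5 genes was 0.22, -0.03 and -0.14 on the 3 days, and that of all tested genes 0.01, 0.02 and -0.00. These are bulk measurements, in which fewer cells of a type and less RNA per cell cannot be told apart.

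**Figure D1:**
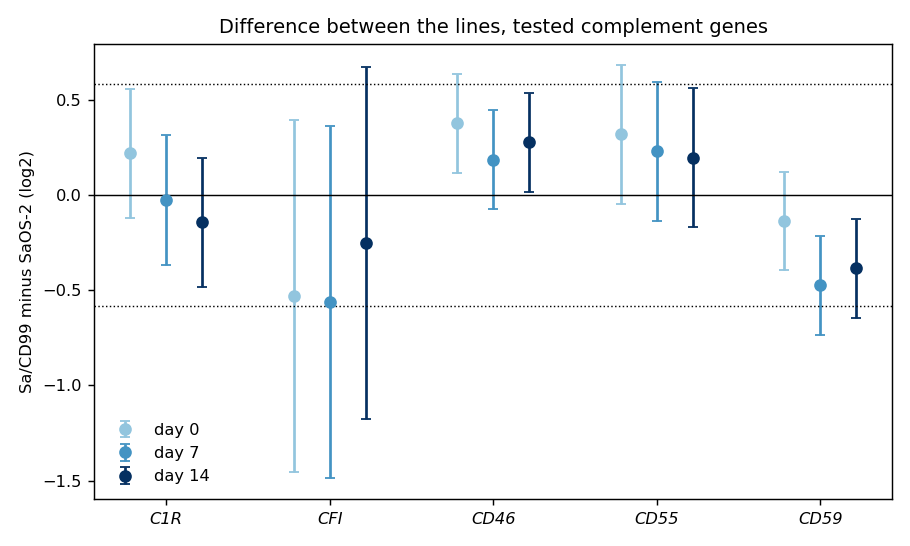
Difference between the lines for the 5 tested complement genes. The vertical axis is the log2 difference, Sa/CD99 minus SaOS-2, points are the fitted differences at days 0, 7 and 14 (light to dark), bars are 95% intervals from limma, and dotted lines mark a 1.5-fold change. CD46 and CD55 lie above 0 on each day, CD59 and CFI lie below it, and the bars of CFI are the longest of the 5.

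C1R was the member that was called higher at later days in differentiation medium than at day 0. On arrays labelled Sa/CD99 it was 6.11 and 6.33 (wt22 and wt36) at day 0, 6.69 and 6.47 at day 7, and 6.83 and 6.86 at day 14. On SaOS-2 arrays it was 5.82 and 6.19 at day 0, 6.74 and 6.47 at day 7, and 7.01 and 6.96 at day 14. In both lines the day 14 arrays lay above all day 0 arrays, and all 4 of them exceeded the signal floor. The change at day 14 against day 0 was 0.62 (1.53-fold, SE 0.15, adjusted p = 0.0134) on arrays labelled Sa/CD99 and 0.98 (1.97-fold, adjusted p = 0.00249) on SaOS-2 arrays, and C1R was called in both. At day 7 against day 0 it was not called on arrays labelled Sa/CD99 (0.36, 95% interval 0.01 to 0.70, adjusted p = 0.095) and was called on SaOS-2 arrays (0.60, 1.52-fold, adjusted p = 0.0128). A test of the difference between these changes did not pass (interaction -0.24 at day 7 and -0.36 at day 14, SE 0.21, adjusted p = 0.999 for both). C1R reached a signal of 100 on 6 of the 12 arrays and on none of day 0, so it entered the test only through the later days, and these folds run against values in the compressed range under the floor. Set against the floor itself, its mean at day 14 was at least 1.15-fold higher on arrays labelled Sa/CD99 and at least 1.27-fold higher on SaOS-2 arrays, and its mean at day 7 on SaOS-2 arrays (6.60) was under the floor and gave no bound. In the fit without filters the same 3 calls were made (adjusted p = 0.0276 for arrays labelled Sa/CD99 at day 14, and 0.0221 and 0.00344 for SaOS-2 arrays at days 7 and 14). The calls at 1.53-fold and 1.52-fold stood close to the threshold. The Sa/CD99 call at day 14 was lost with array weights by line (adjusted p = 0.171) and from arrays labelled Sa/CD99 alone (adjusted p = 0.0672), and the SaOS-2 call at day 7 after median subtraction (0.56, under 1.5-fold). Without the wt22 array at day 0 the Sa/CD99 change at day 14 was 0.51 (adjusted p = 0.0739), and the SaOS-2 change at day 7 was 0.42 (adjusted p = 0.104) without SaOS-2 array 1 of day 0 and 0.47 (adjusted p = 0.102) without array 1 of day 7.

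Between the lines, C1R differed by 0.22 at day 0 (95% interval -0.12 to 0.56), -0.03 at day 7 (-0.37 to 0.31) and -0.14 at day 14 (-0.48 to 0.20), with adjusted p of 0.635, 0.938 and 0.676 in limma. The intervals lie inside a 1.5-fold change (0.58 on the log2 scale) in each direction on every day, although all 4 arrays of day 0 were under the floor, where differences are compressed. Of the C1 proteases, C1R thus passed the floor on some arrays of days 7 and 14, and its partner C1S on none.

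**Figure D2:**
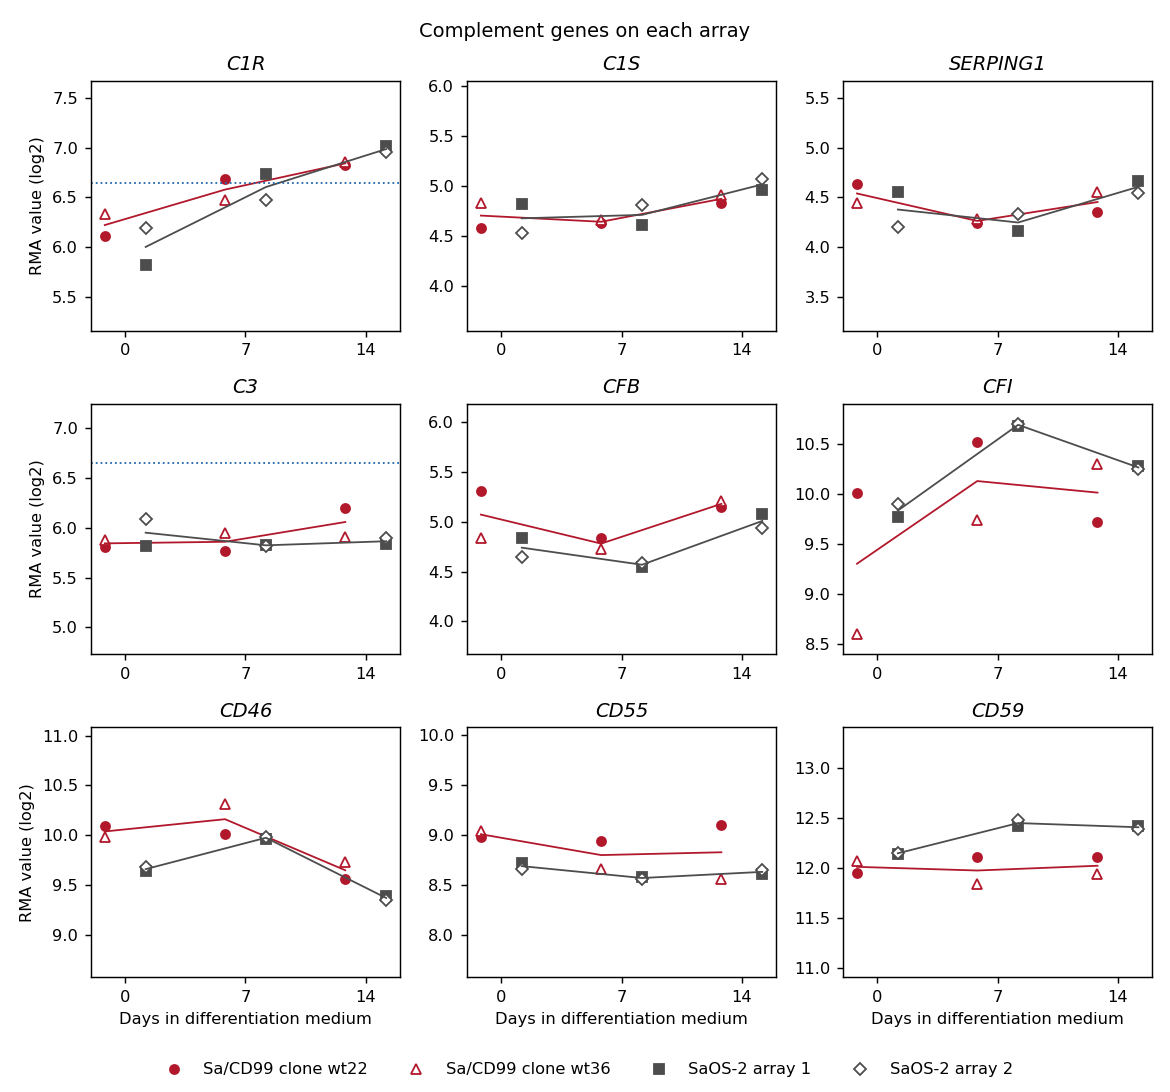
The 9 complement genes on each of the 12 arrays. The vertical axes give log2 RMA values over the same span in each panel, the horizontal axes give days in differentiation medium, symbols are single arrays (clones wt22 and wt36, SaOS-2 arrays 1 and 2), lines join group means, and the dotted line, where it falls in a panel, is a signal of 100. C1R climbs in both lines, the clones part for CFI, and C1S, C3, CFB and SERPING1 stay under the floor.

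In the day comparisons as a whole, the count of called members stayed small. Of the 5 tested, 0 were called at day 7 against day 0 on arrays labelled Sa/CD99 (15.8% of tested genes were called), and 1, C1R, at day 14 (19.7%). On SaOS-2 arrays 1 was called at day 7 (20.4%) and 1 at day 14 (14.7%), C1R both times. All of these calls were in the upward direction, in which 8.22% and 7.42% of tested genes were called on arrays labelled Sa/CD99 at days 7 and 14, and 10.9% and 7.42% on SaOS-2 arrays. With 5 genes tested, counts of 0 and 1 are too small to be read against these shares. Arrays of the days did not overlap for 2 and 2 of the 5 on arrays labelled Sa/CD99 (58.8% and 66% of tested genes) and for 5 and 5 of the 5 on SaOS-2 arrays (86.4% and 86.1%). The interactions called 0 of the 5 at day 7 and 0 at day 14 (0% of tested genes each), and no member passed an unadjusted p of 0.05 there (3.75% and 3.36% of tested genes did).

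CFI, the soluble protease that inactivates C3b and C4b, was read well above the floor on every array, by the probe set with the widest range of group means among the members. On arrays of clone wt22 it was 10.01 at day 0, 10.52 at day 7 and 9.72 at day 14. On those of clone wt36 it was 8.59, 9.74 and 10.30. SaOS-2 arrays gave 9.77 and 9.89 at day 0, 10.68 and 10.70 at day 7, and 10.28 and 10.25 at day 14. The clones thus took different courses: wt22 was 1.42 higher than wt36 at day 0 (2.67-fold), 0.78 higher at day 7 and 0.58 lower at day 14, while the parental arrays differed by no more than 0.12 on any day. SaOS-2 values lay between the clones at days 0 and 14 and above both at day 7. With clones this far apart the SE was 0.41, and the line differences of -0.53, -0.56 and -0.25 at days 0, 7 and 14 were not called (adjusted p = 0.685, 0.444 and 0.80 in limma). Their intervals, -1.46 to 0.39, -1.49 to 0.36 and -1.18 to 0.67, hold changes of more than 2-fold.

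Against day 0, CFI was 0.83 and 0.71 higher at days 7 and 14 on arrays labelled Sa/CD99 (adjusted p = 0.144 and 0.189), and 0.86 and 0.43 higher on SaOS-2 arrays (adjusted p = 0.119 and 0.429). None of these was called in the shared fit. The SaOS-2 day 7 value was called when the spread was estimated from SaOS-2 arrays alone (0.86, adjusted p = 1.61e-05) and when arrays were weighted by line (adjusted p = 0.00055). It was also called without either clone's array of day 0 (adjusted p = 0.0262 each). On arrays labelled Sa/CD99 the day 7 change was 1.54 and the day 14 change 1.42 without the wt22 array of day 0. Without the wt36 array of day 0 they were 0.12 and 0.0037. These refits set the mean of both clones at the later day against 1 clone at day 0, so they are not changes within a clone. Within clones, both were higher at day 7 than at day 0 (10.52 against 10.01 for wt22, 9.74 against 8.59 for wt36). At day 14 wt22 was lower than at day 0 (9.72) and wt36 higher (10.30). The second CFI probe set, 203854_at, gave line differences of -0.42, -0.53 and -0.33 and was likewise not called. The genes whose log2 values ran most like those of CFI over the 12 arrays, among 6639 ranked, were CCNG1 (cyclin G1, Pearson r = 0.95), PLS3 (plastin 3, an actin-bundling protein, r = 0.91) and PLEKHA5 (r = 0.91). The 12 arrays share 2 lines and 3 days, and these r values are descriptive.

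CD46, the membrane cofactor for CFI, was higher on every array labelled Sa/CD99 than on both SaOS-2 arrays of the same day. At day 0 clones wt22 and wt36 had 10.09 and 9.99, against 9.64 and 9.68 in SaOS-2. At day 7 they had 10.01 and 10.31, against 9.97 and 9.98 in SaOS-2. At day 14 they had 9.57 and 9.73, against 9.39 and 9.35 in SaOS-2. The differences of 0.38 (95% interval 0.12 to 0.64), 0.19 (-0.07 to 0.45) and 0.28 (0.02 to 0.54) were 1.30-fold or less and were not called in limma (adjusted p = 0.17, 0.371 and 0.266). At day 7 the 2 other probe sets of CD46 did not share the gap: 207549_x_at differed by 0.00 and 211574_s_at by -0.06, although both were higher under the Sa/CD99 label at day 0 (0.26 and 0.35) and day 14 (0.40 and 0.37).

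In group means CD46 was higher at day 7 and lower at day 14 than at day 0 in both lines, and the size of the difference varied between its probe sets. By the main probe set clone wt22 was not higher at day 7 (10.01, against 10.09 at day 0), and wt36 was (10.31 against 9.99). By each other CD46 probe set both clones were higher at day 7 than at day 0. On arrays labelled Sa/CD99 the main probe set differed from day 0 by 0.12 at day 7 (adjusted p = 0.433) and -0.39 at day 14 (adjusted p = 0.0271, 1.31-fold), and on SaOS-2 arrays by 0.31 (adjusted p = 0.0534) and -0.29 (adjusted p = 0.0808). The Sa/CD99 difference at day 14 passed the p threshold but not the fold threshold. Probe set 211574_s_at was not called at day 7 on arrays labelled Sa/CD99 (0.18, adjusted p = 0.149) and was called higher on SaOS-2 arrays (0.60, adjusted p = 0.00144). A difference between the lines in this change did not pass the interaction test for any member probe set.

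CD55, the decay-accelerating factor, also ran higher under the Sa/CD99 label. Clones wt22 and wt36 had 8.98 and 9.04 at day 0, against 8.72 and 8.66 in SaOS-2. At day 7 they had 8.94 and 8.66, against 8.58 and 8.56 in SaOS-2. At day 14 they had 9.10 and 8.56, against 8.61 and 8.66 in SaOS-2. The lines did not overlap at days 0 and 7, and at day 14 the 2 clones lay on either side of the parental arrays. The differences of 0.32, 0.23 and 0.20 (SE 0.16) were not called (limma, adjusted p = 0.474, 0.43 and 0.582), and the day 14 difference was -0.07 without the wt22 array. The other probe sets gave 0.28, 0.17 and 0.27 (201926_s_at) and 0.31, 0.23 and 0.24 (201925_s_at).

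Over time the probe sets of CD55 disagreed. The main one differed from day 0 by -0.21 and -0.18 at days 7 and 14 on arrays labelled Sa/CD99, and by -0.12 and -0.06 on SaOS-2 arrays, none of it called (adjusted p = 0.344, 0.392, 0.579 and 0.796). Probe set 201925_s_at fell by 0.66 at day 7 (adjusted p = 0.0384) and by 0.77 at day 14 (adjusted p = 0.0208) on arrays labelled Sa/CD99, and by 0.70 at day 14 on SaOS-2 arrays (adjusted p = 0.0333). On SaOS-2 arrays at day 7 its difference from day 0 was -0.58 (adjusted p = 0.0537). In the fit without filters the Sa/CD99 call at day 7 and the SaOS-2 call at day 14 were lost (adjusted p = 0.0618 and 0.063), and the Sa/CD99 call at day 14 was made (adjusted p = 0.0403). No source used here says which transcripts each CD55 probe set reads.

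CD46 and CD55 lie on chromosome 1 within a stretch that ran higher as a whole under the Sa/CD99 label. The 20 nearest tested genes on each side were the same 40 genes for both. Their median difference, Sa/CD99 minus SaOS-2, was 0.31, 0.25 and 0.28 at days 0, 7 and 14, close to the differences of CD46 (0.38, 0.19 and 0.28) and of CD55 (0.32, 0.23 and 0.20). Of the 40, 38, 37 and 34 were above 0 on the 3 days, where 52.1%, 52.5% and 49.7% of all tested genes were, and 1, 3 and 0 were called. The median over all 722 tested genes of chromosome 1 was 0.10, 0.12 and 0.07. Each clone showed it: the median of the 40 was 0.26, 0.19 and 0.26 for wt22 minus the SaOS-2 mean, and 0.35, 0.39 and 0.28 for wt36. By clone, CD46 itself differed by 0.43, 0.04 and 0.19 for wt22 and by 0.32, 0.33 and 0.36 for wt36. CD55 differed by 0.29, 0.37 and 0.46 for wt22 and by 0.35, 0.09 and -0.07 for wt36. Neither member thus stayed close to the median of the 40 in both clones on every day. Around CD59 the medians of Sa/CD99 minus SaOS-2 were 0.04, 0.08 and -0.06, around CFI -0.02, -0.11 and -0.06, and around C1R -0.01, 0.02 and 0.01. This stretch was singled out after its values were seen, and its part in the differences of CD46 and CD55 was not tested.

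**Figure D3:**
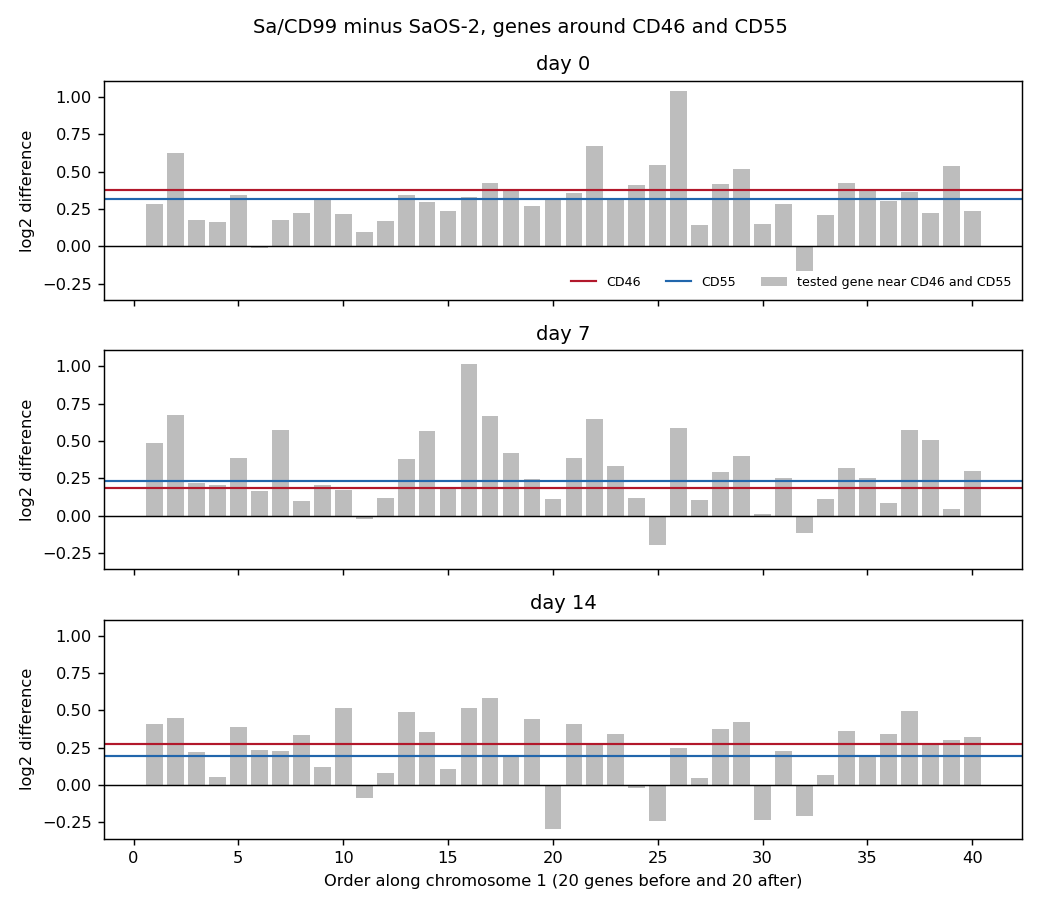
Tested genes around CD46 and CD55 at days 0, 7 and 14. The vertical axes give the log2 difference, Sa/CD99 minus SaOS-2, grey bars are the 40 nearest tested genes in their order along chromosome 1, and the lines are CD46 (red) and CD55 (blue). Most bars are above 0 on each day, 38, 37 and 34 of 40, and the lines of both members fall among them.

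CD59, which stops the membrane attack complex, was lower on every array labelled Sa/CD99 than on both SaOS-2 arrays of the same day. Clones wt22 and wt36 had 11.95 and 12.07 at day 0, against 12.14 and 12.15 in SaOS-2. At day 7 they had 12.12 and 11.83, against 12.42 and 12.48 in SaOS-2. At day 14 they had 12.11 and 11.94, against 12.42 and 12.39 in SaOS-2. The lines did not overlap on any day, and the gap was wider at days 7 and 14. The differences were -0.14 (95% interval -0.39 to 0.12), -0.47 (-0.73 to -0.22) and -0.39 (-0.64 to -0.13), with limma adjusted p of 0.717, 0.0642 and 0.135, and none was called. The suffix of its main probe set, 200983_x_at, marks probes that may match other sequences too. Without the wt22 array of day 7 the day 7 difference was -0.62 and was called (adjusted p = 0.0295).

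The 3 other tested probe sets of CD59 pointed the same way at every day. 200985_s_at differed by -0.19, -0.44 and -0.39 at days 0, 7 and 14, 200984_s_at by -0.18, -0.50 and -0.35, and 212463_at by -0.13, -0.23 and -0.51. Their adjusted p fell to 0.05 or below at day 7 for the first pair (0.0324 and 0.0308) and at day 14 for 212463_at (0.0446), each with a change under 1.5-fold, so no CD59 probe set was called. In time, CD59 differed from day 0 by -0.04 at day 7 and 0.01 at day 14 on arrays labelled Sa/CD99 (adjusted p = 0.828 and 0.946), against 0.30 and 0.26 on SaOS-2 arrays (adjusted p = 0.0594 and 0.106). The interaction, -0.34 at day 7 (95% interval -0.70 to 0.03) and -0.25 at day 14 (-0.61 to 0.12), did not pass (adjusted p = 0.999 for both), and 0 of the 6644 tested genes passed there on either day. In the fit without filters 0 and 1 of 19775 genes did. In the group means of their main probe sets, CD46 and CD55 were the higher and CD59 the lower under the Sa/CD99 label. None of these differences was called. That of CD46 at day 7 was not shared by its other probe sets, and that of CD55 at day 14 was not shared by both clones.

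Beyond the 9 genes, 56 further complement genes were listed, of which 49 had a probe set of their own and 5 were tested: CFD, COLEC12, CLU, C1QBP and SUSD4. The other 44 stayed at or below a signal of 100 on at least 9 of 12 arrays. CFD, the protease that activates CFB, rose with time. On arrays labelled Sa/CD99 it was 8.69 and 9.23 at day 0, 9.30 and 9.34 at day 7, and 9.52 and 9.81 at day 14 (wt22 and wt36). On SaOS-2 arrays it was 8.74 and 8.70, 9.54 and 9.59, and 10.26 and 10.19. CFD was called at day 14 on arrays labelled Sa/CD99 (0.70, adjusted p = 0.0112) and at days 7 and 14 on SaOS-2 arrays (0.84, adjusted p = 0.00436, and 1.5, adjusted p = 0.000454). The day 14 interaction, the change on arrays labelled Sa/CD99 minus that on SaOS-2 arrays, was -0.80 and did not pass (adjusted p = 0.999). CFB, the substrate of CFD, was under the floor on every array. CFD is also made by adipocytes, and the 5 other adipocyte markers listed never exceeded a signal of 100.

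COLEC12, a scavenger receptor of the collectin family, rose in both lines. It was 5.45 and 4.88 at day 0, 7.94 and 7.71 at day 7, and 9.20 and 9.14 at day 14 on the wt22 and wt36 arrays, and 6.28 and 6.18, 8.15 and 8.26, and 9.46 and 9.46 on SaOS-2 arrays. COLEC12 was below a signal of 100 on all 4 arrays of day 0 and entered the test through the later days, so its changes are given as bounds against that floor. At days 7 and 14 it was at least 2.27-fold and 5.74-fold higher than at day 0 on arrays labelled Sa/CD99. On SaOS-2 arrays it was at least 2.96-fold and 7.05-fold higher. The bounds themselves were not tested. The limma differences from the values under the floor had adjusted p of 2.43e-05 and 4.62e-06 (Sa/CD99) and 0.000126 and 1.09e-05 (SaOS-2). In the fit without filters these were 1.09e-05, 1.02e-06, 8.31e-05 and 3.48e-06. Between the lines, 1 of the 5 tested genes of the wider list was called at day 0, COLEC12, lower under the Sa/CD99 label. At days 7 and 14 the count was 0. Of all tested genes 1.16%, 1.84% and 1.66% were called on the 3 days. Both groups of COLEC12 were under the floor at day 0, so no size is given for that difference. CLU, clusterin, a secreted inhibitor of the terminal complex, fell by 0.91 at day 14 on arrays labelled Sa/CD99 (adjusted p = 0.0154), while its difference on SaOS-2 arrays was 0.15 (adjusted p = 0.624). The interaction was -1.06 and did not pass (adjusted p = 0.999).

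**Figure D4:**
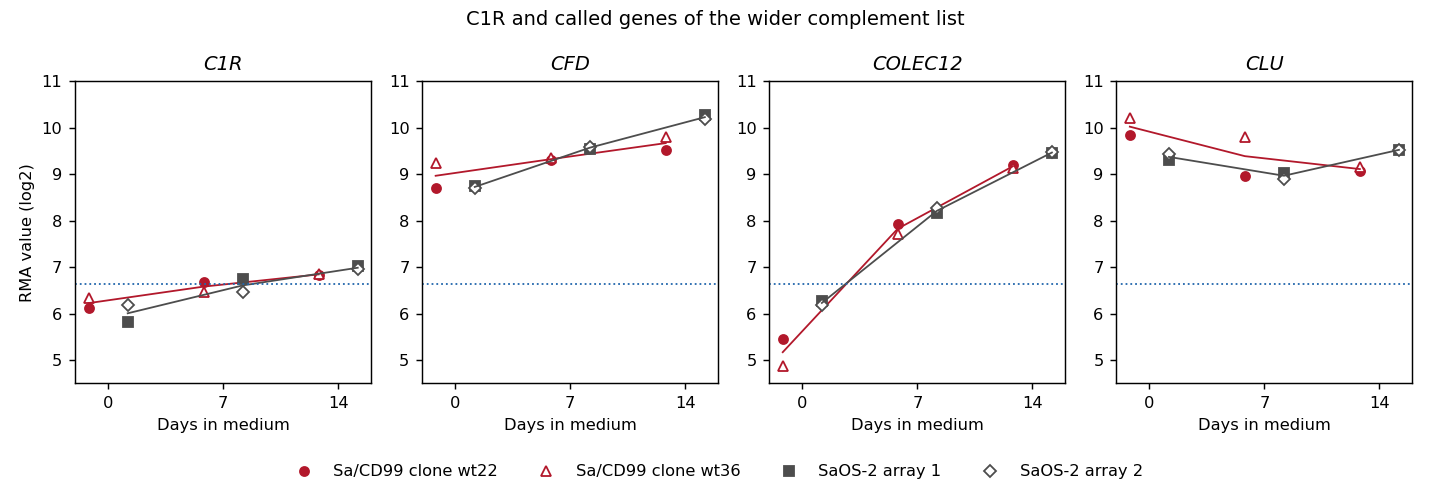
C1R and the called genes of the wider complement list on each array. The vertical axes give log2 RMA values on 1 shared scale, the horizontal axes give days in medium, symbols are single arrays, lines join group means, and the dotted line is a signal of 100. C1R, CFD and COLEC12 are higher at day 14 than at day 0 in both lines, and CLU is lower at day 14 than at day 0 on arrays labelled Sa/CD99.

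Cytokines that induce complement genes, with their receptors, kinases and transcription factors, were listed as a second group (30 genes, 28 on the array, 17 tested). Between the lines 0 of 17 were called on each of the 3 days, against 1.16%, 1.84% and 1.66% of all tested genes. With time, 5 rose and 2 fell at day 7 and 6 rose and 2 fell at day 14 on arrays labelled Sa/CD99, where 15.8% and 19.7% of tested genes were called, 8.22% and 7.42% of tested genes upward. On SaOS-2 arrays 6 rose and 2 fell at day 7 and 5 rose and 1 fell at day 14, where 20.4% and 14.7% of tested genes were called, 10.9% and 7.42% upward. These counts describe the list and were not tested against other genes. IL1R1, the signalling receptor of interleukin 1, rose by 2.34 and 2.50 on the log2 scale at days 7 and 14 on arrays labelled Sa/CD99. There the wt22 array of day 0 (6.62) was under the floor and the wt36 array (7.06) above it. On SaOS-2 arrays IL1R1 was under the floor at day 0. As read, it was 2.78 and 2.77 higher on the log2 scale at days 7 and 14 on SaOS-2 arrays. Against the floor it was at least 4.72-fold and 4.70-fold higher on those arrays. The limma differences from those day 0 values had adjusted p of 0.000118 and 0.00011, and of 6.42e-05 and 6.00e-05 without filters. CEBPB, a transcription factor of the acute phase response, rose by 0.80 and 0.93 on arrays labelled Sa/CD99 and by 0.88 and 0.98 on SaOS-2 arrays, and IRF9, the DNA-binding part of the interferon-activated ISGF3 complex, by 1.09 and 1.02 on arrays labelled Sa/CD99 and by 0.85 and 0.77 on SaOS-2 arrays. LIFR, a receptor chain for leukemia inhibitory factor and oncostatin M, rose by 1.04 at day 7 on arrays labelled Sa/CD99 and by 1.26 on SaOS-2 arrays, and CEBPD, a relative of CEBPB, by 0.87 at day 14 on SaOS-2 arrays. IL6R, the ligand-binding chain of the interleukin 6 receptor, fell by 1.01 and 1.11 on arrays labelled Sa/CD99 and by 1.34 and 1.45 on SaOS-2 arrays. The median over the 17 genes was 0.38 and 0.31 on arrays labelled Sa/CD99 and 0.54 and 0.30 on SaOS-2 arrays, against -0.02, -0.03, -0.04 and -0.03 over all tested genes.

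Genes that build the GPI anchor of CD55 and CD59 were the third group (28 listed, 27 on the array, 11 tested), and 0 of 11 were called between the lines on any day, where 1.16% to 1.84% of all tested genes were. PIGZ, a mannosyltransferase of anchor synthesis, rose by 0.69 at day 14 on arrays labelled Sa/CD99 and by 0.62 and 0.88 at days 7 and 14 on SaOS-2 arrays. PIGK, part of the transamidase that attaches the anchor, fell by 0.64 at day 14 on arrays labelled Sa/CD99. PGAP1, which remodels the anchor, fell under the floor there and was at least 1.44-fold lower than at day 0. The limma difference, with the day 14 values as read, had an adjusted p of 0.0174, and of 0.0317 without filters. The other tested genes of the group did not pass in any comparison.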

How the data were processed

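Total RNA of 12 samples was read on Affymetrix HG-U133 Plus 2.0 arrays. The authors deposited log2 RMA values per probe set, which are background-corrected, quantile-normalized over the arrays and summarised over the probes of a set; quantile normalization forces 1 distribution on all arrays, so a shift of most genes cannot be seen. The submitters' notes name affy and RMA without versions. Genes were named through the platform annotation, updated by gene ID to GRCh38.p14 names. Of 54613 probe sets other than the 62 controls, 41091 had 1 gene, 1801 several and 11721 none.

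Filters followed the study. Probe sets at or below a signal of 100 on at least 9 of 12 arrays were dropped (18677 left), then those with an interquartile range no larger than the median (12894 left, 6644 genes). Group means were fitted with limma 3.58.1 in R 4.3.3 (lmFit, eBayes) on 12 arrays, with 6 residual degrees of freedom. Adjusted p-values are Benjamini-Hochberg over the 12894 probe sets. Calls needed an adjusted p of at most 0.05 and at least 1.5-fold; "rose" and "fell" are used of called probe sets. Some called list genes had every array of 1 group at or below a signal of 100. Their change is given against that floor as a bound, each array of the dim group taken at the floor. C1R and, on SaOS-2 arrays, IL1R1 are given both ways. Adjusted p-values given with a bound are of the limma difference as read, not of the bound. The script was tested on simulated data.

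There were 9 comparisons: 3 between lines (1 per day), 4 of a later day with day 0 (2 per line) and 2 interactions. Clone numbers mark the same transfected line on each day; over probe sets, the wt22 minus wt36 difference of one day correlated with that of another at r = 0.58, 0.32 and 0.63 (SaOS-2 arrays -0.04, 0.24 and -0.05). All 9 members are named, with CD99, called list genes (up to 4 per list and comparison, those with the largest change) and the 3 genes most like the member with the widest range. The members and lists were chosen with earlier results of these data known. Alternatives changed the filters, normalization, prior, weights, arrays fitted, probe set rule and replicate block. The number of arrays limits the precision.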

Additional observations from a re-analysis of the deposited data

How the results depend on the processing

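Of 1010 alternative values of the 45 member differences, 969 kept direction and side of the threshold. With random or fixed replicate block no member call changed, and the counts of called members stayed 0, 0 and 0 between lines (random block only), 0 and 1 on arrays labelled Sa/CD99, and 1 and 1 on SaOS-2 arrays. Sign changed in 27, and 6 lost and 8 gained a call. The C1R difference between the lines at day 7 (-0.03) was 0.0076 after quantile normalization of the tested probe sets and 0.029 after median subtraction. CD59 at day 7 against day 0 on arrays labelled Sa/CD99 (-0.04) was 0.061 after quantile normalization and 0.095 as a mean of probe sets, and at day 14 (0.01) it was -0.065 as a mean. CD55 at day 14 on SaOS-2 arrays (-0.06) was 0.021 and 0.023 under these normalizations. The day 7 interaction of CFI (-0.03) was 0.016 after median subtraction, and the day 14 interaction of CD46 (-0.10) was 0.016 as a mean of probe sets. Leaving out 1 array at a time gave line differences of -1.24 to 0.18 (day 0) and -0.54 to 0.039 (day 14) for CFI, -0.16 to 0.11 for C1R (day 7) and -0.072 to 0.46 for CD55 (day 14). On arrays labelled Sa/CD99 it gave -0.025 to 0.27 for CD46 and -0.18 to 0.10 for CD59 at day 7, and -0.45 to 0.088 for CD55 and -0.076 to 0.10 for CD59 at day 14. Interactions ranged from -0.74 to 0.68 (day 7) and -0.43 to 0.99 (day 14) for CFI, and from -0.23 to 0.048 and -0.39 to 0.15 for CD55. Called members ranged from 0 to 1 between the lines at day 7 and at day 7 on arrays labelled Sa/CD99, and from 0 to 2 at day 7 on SaOS-2 arrays. Without the wt22 array of day 0, CFI replaced C1R as the 1 call at day 14 on arrays labelled Sa/CD99. There, 0 members were called with array weights by line or those arrays alone, and 2 with no fold threshold, an alternative chosen after seeing the data. At day 7 on SaOS-2 arrays 0 were called after median subtraction and 2 with array weights or SaOS-2 arrays alone. The causes of these changes were not tested. Over all genes the line comparisons called 77, 122 and 110 genes, against 6, 7 and 4 with the arrays of 1 day alone and 4 to 101, 10 to 226 and 10 to 199 with 1 array left out. Day 7 called 187 with no fold threshold. Day comparisons called 1050 and 1311 on arrays labelled Sa/CD99 (475 and 409 from those arrays alone, 2233 and 2700 with no fold threshold) and 1353 and 979 on SaOS-2 arrays (2731 and 2169 with no fold threshold, and at day 14 556 without SaOS-2 array 2 of day 0). The interactions called at most 3 genes under any setting.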

Other observations

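The genes around CFB on chromosome 6 differed by clone. The median difference from the SaOS-2 mean over the 40 nearest tested genes was 0.10, 0.25 and 0.28 at days 0, 7 and 14 for wt22, and -0.17, -0.14 and -0.20 for wt36. Of the 40, 32, 36 and 35 were above 0 for wt22, and 9, 10 and 6 for wt36. CFB itself was under the signal floor on these arrays. Its main probe set was 0.56, 0.27 and 0.14 above the SaOS-2 mean for wt22 and 0.10, 0.16 and 0.20 above it for wt36. This stretch was picked out after the values were seen, and no test was run on it.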
